A study of Mus musculus with 6 samples.

Results

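Il33 and its relatives among the interleukin-1 (IL-1) family ligands and receptors were examined in whole mouse pancreas at stage E12.5 of embryonic development. The genes chosen were Il33, Il1rl1, Il1rap, Il1r1 and Il18, and every probe set whose platform annotation gives one of these symbols alone was used. This gave 9 probe sets for 4 of the 5 genes, out of 45037 probe sets and 18193 genes in all. The annotation lists no probe set for Il1rl1, which was not analysed here. Il33 was chosen by its difference in log2 expression between these same 6 arrays, and the others were added as its relatives, so that the values of all 4 genes between the groups are a description and carry no test.

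The groups were 3 samples labelled Hox6 null and 3 labelled wild type, here called control, all from strain Bl6 and each on its own Affymetrix array. Hox6 stands for the paralogous homeobox genes Hoxa6, Hoxb6 and Hoxc6. The labels describe the samples as biological replicates without giving the number of embryos in each. The p-values below set the difference between the groups against the spread between these samples. The exact permutation test of 3 against 3 arrays cannot give a p below 0.1.

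IL-33 is a cytokine that is kept in the nucleus and released when cells are damaged, for which reason it is called an alarmin. It signals through a receptor of the ligand-binding chain ST2, encoded by Il1rl1, and the accessory chain encoded by Il1rap, which also serves the IL-1 receptor encoded by Il1r1. The receptors of the family signal through the adaptor MyD88 to the transcription factor NF-kB. In adult tissues IL-33 is made mainly by endothelial, epithelial and stromal cells, and its best known responders are mast cells, group 2 innate lymphoid cells (ILC2) and regulatory T cells.

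The null arrays were less alike than the controls. Array medians lay between 5.98 and 6.02 in null arrays and between 5.97 and 6.02 in control arrays, on the deposited log2 scale. On the first principal component, which held 46.6% of the variance, null 1 and null 2 lay on one side, at 61.7 and 36.0, and null 3 at -14.9 lay nearer to the controls, at -29.96 to -22.9. On the second component, with 18.8%, null 3 at -40.3 was farthest from the controls, at 11.8 to 16.7, while null 1 lay at 20.6 and null 2 at -21.3. Among the targeted genes, the Hoxb6 probe set differed by -0.42 ± 0.21 (SE) and the 3 Hoxc6 probe sets by 0.13, 0.47 and 0.73, with limma adjusted p-values of 0.393, 0.551, 0.380 and 0.253. Since the disrupted stretch of these genes is not given in the labels, these probe sets do not check the genotype. Pdx1, the pancreatic master regulator, was bright on every array, at 8.78 to 9.97 in null arrays and 8.24 to 8.62 in control arrays. The presence of adjoining tissue was not tested.

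Il33 was lower on all 3 null arrays than on any control array. Its single probe set, 1416200_at, read 2.73, 3.37 and 3.12 in null 1, null 2 and null 3, against 5.17, 4.87 and 5.47 in control 1, control 2 and control 3. The groups did not overlap, and the highest null value lay 1.496 below the lowest control value. The means were 3.07 ± 0.33 in null and 5.17 ± 0.30 in control arrays (SD, n = 3 each), a difference of -2.09 ± 0.21 (SE), which is 4.27-fold lower in null pancreas.

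The signal of Il33 in null arrays was close to the bottom of the scale. On the null arrays 5.80%, 14.3% and 11.5% of all probe sets were dimmer than Il33, whereas on the control arrays 38.7%, 34.1% and 43.3% were. The lowest value of any probe set was 1.66 to 1.79 on null arrays and 1.66 to 1.75 on control arrays. Of all 18193 genes, 11 had a difference below that of Il33.

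Relative to the control mean, Il33 stood at -2.44 in null 1, -1.80 in null 2 and -2.05 in null 3. Without null 3 the difference was -2.12.

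**Figure D1:**
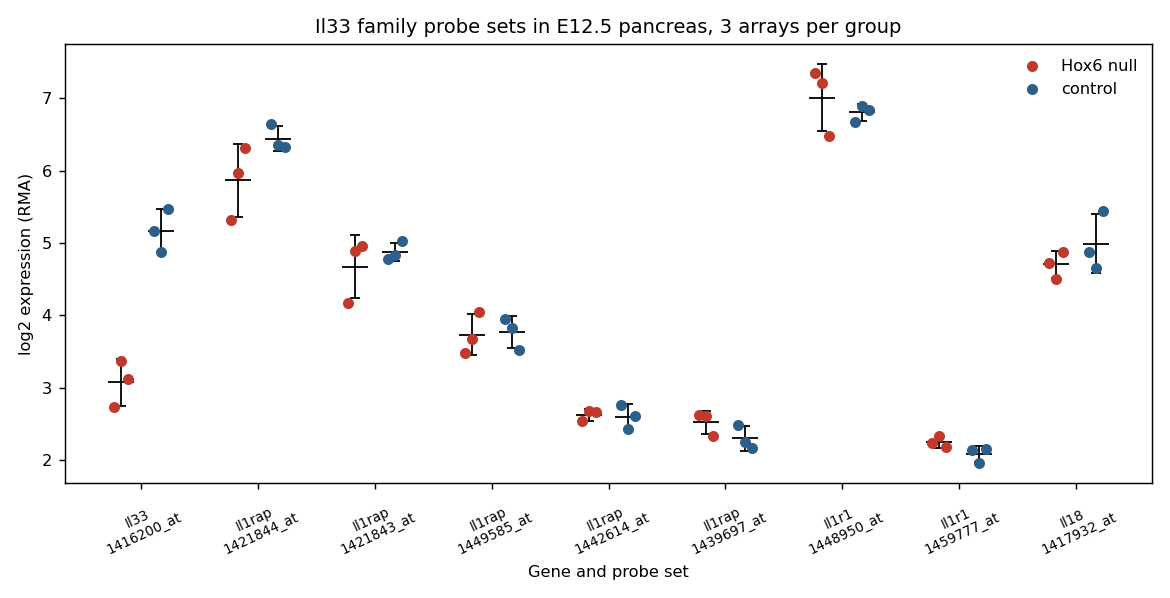
Each point is the log2 expression of a probe set on 1 array, with 3 Hox6 null arrays to the left and 3 control arrays to the right of each position; horizontal marks and bars give the mean and SD. Il33 lies at 2.73 to 3.37 in null and 4.87 to 5.47 in control arrays, while the groups of Il18 and of the main Il1r1 probe set overlap.

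The Il33 gene lies on mouse chromosome 19, and RefSeq (GRCm38.p6) gives it a pair of promoter windows, one for each annotated start. The 250 bases before each start are shown because Il33 was the member with the large difference and Hox proteins bind DNA through a homeodomain. Capitals mark matches on either strand to TAAT (the homeodomain core), TGATNNAT (a composite Hox and Pbx site) and TATAAA (the TATA box), 5′ to 3′ on the plus strand.
Il33 upstream start, chr19:29924863-29925112: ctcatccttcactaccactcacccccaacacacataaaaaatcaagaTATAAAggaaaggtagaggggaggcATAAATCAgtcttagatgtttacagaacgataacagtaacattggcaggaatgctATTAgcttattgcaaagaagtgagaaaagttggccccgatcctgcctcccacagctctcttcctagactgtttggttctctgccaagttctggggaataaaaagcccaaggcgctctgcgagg
Il33 downstream start, chr19:29945540-29945789: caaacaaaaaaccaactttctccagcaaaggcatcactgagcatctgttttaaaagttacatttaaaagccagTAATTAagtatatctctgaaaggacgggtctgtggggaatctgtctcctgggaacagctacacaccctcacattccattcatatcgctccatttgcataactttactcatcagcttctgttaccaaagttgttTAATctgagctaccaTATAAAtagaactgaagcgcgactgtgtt

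The window of the upstream start held 1 match to TGATNNAT, beginning 178 bases before the start, 1 match to TAAT, and a TATAAA beginning 203 bases before the start. The window of the downstream start held 3 matches to TAAT, 2 of them sharing bases in a palindrome, and a TATAAA beginning 29 bases before the start. Of 32851 promoter windows of this length in the RefSeq table, 54.9% held TAAT, 7.68% held TGATNNAT and 12.4% held TATAAA. In the windows of the other members, matches to TAAT ran from 0 (Il1rap) to 5 (Il18 and the upstream start of Il1r1). None of those windows held TGATNNAT. These matches are letters in a window and are not shown to be binding sites, and the array does not tell which start was used.

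Il18, the other member that encodes a ligand, differed little between the groups. IL-18 is made as an inactive precursor and is cut by caspase-1 in the inflammasome. Its probe set 1417932_at read 4.73, 4.51 and 4.87 in null 1, null 2 and null 3, against 4.88, 4.66 and 5.44 in control 1, control 2 and control 3. The groups overlapped, with control 3 above the other 5 arrays. The means were 4.70 ± 0.19 in null and 4.99 ± 0.40 in control arrays (SD, n = 3 each), a difference of -0.29 ± 0.21 (SE). Without control 3 this difference was -0.07.

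Il1rap, the accessory chain shared by the receptors for IL-33 and IL-1, was lower in null arrays at its brightest probe set, and the groups overlapped at its other probe sets. A negative difference was found at 3 of its 5 probe sets. Probe set 1421844_at read 5.32, 5.97 and 6.31 in null 1, null 2 and null 3, against 6.64, 6.35 and 6.33 in control 1, control 2 and control 3. The groups stood apart by 0.023 between null 3 and control 3, with null 1 the lowest of all arrays. The means were 5.87 ± 0.50 in null and 6.44 ± 0.17 in control arrays (SD, n = 3 each), a difference of -0.57 ± 0.24 (SE). It was -0.79 without null 3 and -0.30 without null 1.

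The other 4 probe sets of Il1rap overlapped between the groups. Probe set 1421843_at, which the annotation ties to the same sequence record as 1421844_at, differed by -0.21 ± 0.21 (SE), and its difference without null 1 was 0.04. The differences of 1449585_at, 1442614_at and 1439697_at were -0.03, 0.02 and 0.22. The last 2 of these read 2.34 to 2.67 in null and 2.16 to 2.77 in control arrays, near the bottom of the scale. Averaged over all 5 probe sets the difference of Il1rap was -0.11.

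Il1r1, the signalling receptor for IL-1 alpha and IL-1 beta, was not set apart at its main probe set. Probe set 1448950_at read 7.34, 7.21 and 6.48 in null 1, null 2 and null 3, against 6.68, 6.90 and 6.84 in control 1, control 2 and control 3. Null 1 and null 2 were above all controls and null 3 was below them. The means were 7.01 ± 0.46 in null and 6.80 ± 0.11 in control arrays (SD, n = 3 each), a difference of 0.21 ± 0.22 (SE) that was 0.47 without null 3. The second probe set, 1459777_at, read 2.18 to 2.33 in null and 1.96 to 2.15 in control arrays, a difference of 0.17 at the very bottom of the scale, where it carries little weight.

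In the comparison over all genes, 13 of 18193 passed a Benjamini-Hochberg adjusted p of 0.05 with limma, which is 0.0715%. Of the 4 measured members 1 passed, Il33, which was chosen for it. Arrays of the groups did not overlap for 2 of the 4 members, Il33 and Il1rap, against 23.8% of all genes. At the level of probe sets the arrays did not overlap for 3 of 9, against 22% of all probe sets. Il33 enters both counts through its choice, so these shares are a description. With 1 array left out the difference of Il33 was between -2.24 and -1.92, and it did not pass without null 1, null 2 or any 1 of the control arrays. The fit without null 3 passed 1536 of all genes, Il33 among them.

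The other ligands, antagonists and receptors of the family were taken from a list of 16 genes, of which 15 were measured. None passed over all genes with limma. An unadjusted p under 0.05 was found for 3, against 17% of all genes. The arrays of 3 (20%) did not overlap, against 23.8% of all genes. The differences of 10 were positive and those of 5 negative, where those of all 18193 genes were 10180 positive and 8013 negative. The list median was 0.08, beside 0.03 for all genes, and turned to -0.040 when quantile normalization was repeated.

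Among these ligands, Il1a read 3.37, 3.08 and 2.95 in null 1, null 2 and null 3, against 2.42, 2.34 and 2.64 in control 1, control 2 and control 3. IL-1 alpha is, like IL-33, a cytokine that is active without cleavage by caspase-1. The groups did not overlap and the difference, 0.67 ± 0.14 (SE), had the opposite sign to that of Il33 but did not pass (adjusted p = 0.153). Without null 3 it was 0.76 and passed, in a fit that passed 1536 of all 18193 genes. With any 1 other array left out, neither Il1a nor any other list gene outside the members passed. The Il1a values, too, lie near the bottom of the scale. Il1b, the inflammasome-dependent ligand, differed by 0.28 ± 0.11 (SE) with an adjusted p of 0.267, at levels of 4.74 to 4.97 in null and 4.45 to 4.64 in control arrays. Il18bp, a secreted inhibitor of IL-18, differed by 0.27 ± 0.19 (SE) with overlapping arrays (adjusted p = 0.484).

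Among the receptors, Il1rl2, which binds the IL-36 cytokines, had the most negative difference of the list. It read 4.81, 5.76 and 5.88 in null 1, null 2 and null 3, against 6.59, 6.43 and 6.53 in control 1, control 2 and control 3. Every null array was below every control, with null 1 the lowest, and the difference of -1.04 ± 0.27 (SE) did not pass (adjusted p = 0.178). That without null 3, -1.23, did, and those with any 1 other array left out did not. Only 1 of its 2 probe sets had this sign, and the difference averaged over both was -0.44.

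On mouse chromosome 1 the genes Il1r2, Il1r1, Il1rl2, Il1rl1, Il18r1 and Il18rap follow each other in this order in the RefSeq annotation. Differences of other genes in this row were smaller than that of Il1rl2, without a test of that contrast. Il1r2, a decoy receptor for IL-1, differed by 0.05 ± 0.15 (SE; adjusted p = 0.883), and Il18rap, the accessory chain of the IL-18 receptor, by -0.11 ± 0.11 (SE; adjusted p = 0.633). Sigirr, an inhibitory receptor of the family that lies elsewhere, differed by 0.25 ± 0.18 (SE; adjusted p = 0.480).

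**Figure D2:**
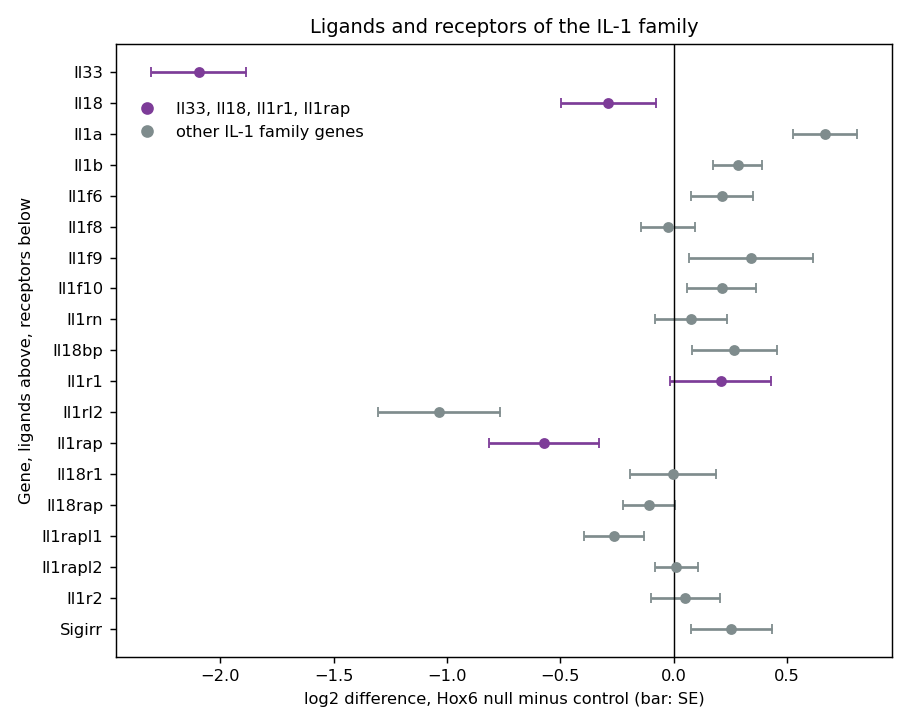
Points give the log2 difference between Hox6 null and control arrays for each measured family gene, at the probe set with the highest mean, and bars give the moderated SE (3 arrays per group). Il33 at -2.09 lies far to the left of all others, followed by Il1rl2 at -1.04 and Il1rap at -0.57, and Il1a at 0.67 lies farthest to the right.

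The signalling genes shared by these receptors showed small differences, mostly below 0. Of 28 listed genes 24 were measured, 20 with a negative and 4 with a positive difference, and the median was -0.09 beside 0.03 for all genes. With limma 0 passed and 1 had an unadjusted p under 0.05, against 17% of all genes. The arrays of 6 (25%) did not overlap, close to the 23.8% of all genes. Myd88, the adaptor that couples the receptors to the IRAK kinases, read 5.81, 6.32 and 6.11 in null 1, null 2 and null 3, against 6.67, 6.45 and 6.62 in control 1, control 2 and control 3. The groups were separate, and the difference of -0.50 ± 0.15 (SE) did not pass (adjusted p = 0.206).

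Ikbkb, a kinase that releases NF-kB from its inhibitor, differed by -0.24 ± 0.11 (SE; adjusted p = 0.306). Only 2 of its 5 probe sets had that sign, and the difference averaged over all 5 was 0.084. Nfkbia, which encodes that inhibitor and is itself induced by NF-kB, differed by -0.14 ± 0.11 (SE; adjusted p = 0.513).

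Genes known to respond to NF-kB or to IL-33 went in both directions. Of 26 listed genes 25 were measured, 16 with positive and 9 with negative differences and a median of 0.09, which turned to -0.021 when quantile normalization was repeated. With limma 0 passed, while 7 had an unadjusted p under 0.05, against 17% of all genes. The arrays of 9 (36%) did not overlap, against 23.8% of all genes. The mRNA decay factor Zfp36 read 7.61, 7.49 and 7.77 in null 1, null 2 and null 3, against 8.20, 8.03 and 8.15 in control 1, control 2 and control 3, and all null arrays were lower. Its difference was -0.50 ± 0.11 (SE) with an adjusted p of 0.158, and without null 3 it was -0.58 and passed. With any 1 other array left out it did not pass.

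Arg1, the arginase of alternatively activated macrophages, went the other way. It read 7.99, 8.23 and 7.33 in null 1, null 2 and null 3, against 7.15, 6.72 and 6.68 in control 1, control 2 and control 3, a difference of 0.999 ± 0.24 (SE; adjusted p = 0.166). Dusp1, a phosphatase that restrains MAP kinases, differed by -0.50 ± 0.13 (SE; adjusted p = 0.180). Tnfaip3, the feedback inhibitor A20 of NF-kB, differed by -0.74 ± 0.23 (SE; adjusted p = 0.215), with the opposite sign at its second probe set. Without null 3, Arg1 at 1.26 and Tnfaip3 at -1.001 passed, and with Zfp36 they were the 3 genes of this list that did. None of the 3 passed with any 1 other array left out.

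The inflammasome and the proteases that cut cytokines of this family had a median difference of -0.14 over 13 measured genes of 18 listed, 4 positive and 9 negative. With limma 0 passed and 1 had an unadjusted p under 0.05, against 17% of all genes. The arrays of 2 (15.4%) did not overlap, against 23.8% of all genes. Pycard, the ASC adaptor of inflammasomes, differed by -0.35 ± 0.13 (SE; adjusted p = 0.267) at its brightest probe set, and by -0.025 averaged over its 3 probe sets. Without null 3 it was -0.47 and passed, the 1 gene of this list that did, and with any 1 other array left out it did not pass. Nek7, a kinase that takes part in NLRP3 activation, differed by -0.19 ± 0.10 (SE; adjusted p = 0.369). Casp1, which cuts the precursors of IL-1 beta and IL-18, differed by 0.04 ± 0.13 (SE; adjusted p = 0.885).

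Markers of the cells best known to carry ST2 did not pass in either direction over all 6 arrays. All 10 mast cell genes were measured, 6 with positive and 4 with negative differences and a median of 0.08 (-0.00043 when quantile normalization was repeated). With limma 0 passed and 3 had an unadjusted p under 0.05, against 17% of all genes. The arrays of 3 (30%) did not overlap, against 23.8% of all genes. Kit, the stem cell factor receptor that is not confined to mast cells, read 6.11, 6.07 and 6.26 in null 1, null 2 and null 3, against 6.42, 6.55 and 6.59 in control 1, control 2 and control 3. Its groups did not overlap, and its difference was -0.37 ± 0.10 (SE; adjusted p = 0.189). Only 1 of its 2 probe sets had this sign, and the difference averaged over both was -0.15.

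The mast cell protease genes differed among themselves. Cpa3 (carboxypeptidase A3) differed by -1.20 ± 0.50 (SE) with wide and overlapping groups, 3.65 to 5.57 in null and 5.31 to 6.44 in control arrays (adjusted p = 0.288). Tpsab1 (a tryptase) differed by 0.41 ± 0.16 (SE; adjusted p = 0.275). Without null 3 both passed, in opposite directions, Cpa3 at -1.70 and Tpsab1 at 0.56. Neither passed with any 1 other array left out. Of 12 genes of ILC2, T helper 2 and regulatory T cells 7 were positive and 5 negative, with a median of 0.14. With limma 0 passed and 0 had an unadjusted p under 0.05, against 17% of all genes. The arrays of 1 (8.33%) did not overlap, against 23.8% of all genes. All 12, like all 10 mast cell genes, lay below the median level of all genes. Klrg1, a lectin-like receptor of activated lymphocytes, differed by 0.25 ± 0.12 (SE; adjusted p = 0.347), and Il7r, the IL-7 receptor chain, by -0.21 ± 0.12 (SE; adjusted p = 0.395).

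**Figure D3:**
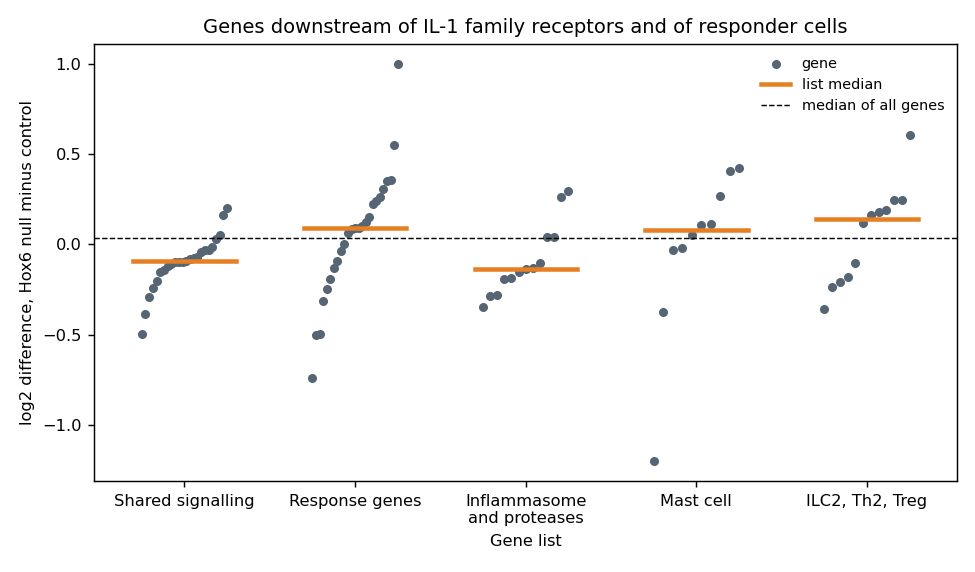
Each point is the log2 difference between Hox6 null and control arrays of 1 gene, ordered by size within its list; orange bars are list medians and the dashed line is the median of all genes (0.03). The medians lie between -0.14 and 0.14; those of response genes and mast cells turned to -0.021 and -0.00043 when quantile normalization was repeated.

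Genes of the cell types that could supply Il33 were examined beside it. In these whole organs, fewer cells of a type and less RNA per cell cannot be told apart. Of the 167 measured genes on all lists other than the members, 4 fell by the limma test over all genes and 0 rose: the endothelial Tek (-1.13 ± 0.12, SE) and Clec14a (-0.92 ± 0.10), and the macrophage Ctss (-0.93 ± 0.10) and Adgre1 (-1.35 ± 0.14), each with an adjusted p of 0.0417. Without null 3 the count was 52, of which 31 were lower and 21 higher in null arrays. In that fit 1536 of all 18193 genes passed. The count of list genes was 0 without null 1, null 2, control 1, control 2 or control 3.

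All 13 endothelial genes were lower on average in null arrays, with a median of -0.58 and a mean level of 7.62 to 7.94 in null against 8.27 to 8.36 in control arrays. All 12 macrophage genes were lower too, with a median of -0.56 and a mean level of 7.31 to 7.82 in null against 8.19 to 8.30 in control arrays. Of 10 mesothelial genes 9 were negative and 0 passed, with a median of -0.98 and a mean level of 6.12 to 6.77 in null against 7.23 to 7.46 in control arrays. Muc16 (-1.06 ± 0.14, SE; adjusted p = 0.0711) and Upk1b (-1.39 ± 0.20, SE; adjusted p = 0.0735), markers of the mesothelial surface layer, had the smallest p-values. Without null 3, 7 endothelial, 7 macrophage and 7 mesothelial genes passed, all of them lower, Muc16 and Upk1b included. Of all 18193 genes, 1536 passed in that fit. The medians of the endothelial, macrophage and mesothelial lists without null 3 were -0.71, -0.74 and -1.16.

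Of 12 genes of mesenchyme and fibroblasts 11 were negative and 0 passed, with a median of -0.29 and a mean level of 9.25 to 9.53 in null against 9.83 to 9.94 in control arrays. The proteoglycan gene Dcn differed by -0.88 ± 0.10 (SE; adjusted p = 0.0607), or by -0.55 averaged over its 2 probe sets, and the transcription factor gene Twist1 by -1.30 ± 0.18 (SE; adjusted p = 0.0711). Lum, another proteoglycan gene, at -2.12 was the 1 gene of the 167 with a difference below that of Il33. Without null 3, 5 genes of this list passed, all lower, among them Dcn, Twist1 and Lum, beside 1536 of all 18193 genes.

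Epithelial and progenitor genes were higher on average and split the null arrays. All 12 epithelial genes were positive and 0 passed (median 0.55), among them the claudins Cldn4 at 1.17 ± 0.33 (SE; adjusted p = 0.191) and Cldn3 at 0.96 ± 0.30 (SE; adjusted p = 0.215). All 9 measured progenitor genes were positive and 0 passed (median 0.80), among them Nkx6-1 at 0.92 ± 0.25 (SE; adjusted p = 0.185) and Pdx1 at 1.08 ± 0.29 (SE; adjusted p = 0.187). Without null 3 the medians were 0.86 for epithelium and 1.19 for progenitors, and 10 of the 12 and 8 of the 9 genes passed, all higher in null arrays. Cldn3 (1.33), Cldn4 (1.55), Pdx1 (1.42) and Nkx6-1 (1.20) were among them. Of all 18193 genes, 1536 passed in that fit.

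The lists are set beside Il33 array by array. The list medians of null 1, null 2 and null 3, relative to the control mean of each gene, came to -0.75, -0.57 and -0.27 over endothelial genes, and to -0.94, -0.65 and -0.33 over macrophage genes. They were -1.10, -1.003 and -0.39 for mesothelium and -0.49, -0.30 and -0.22 for mesenchyme. For epithelium they were 0.90, 0.86 and 0.05, and for progenitors 1.21, 0.92 and 0.21. These medians cover single genes that ordered the null arrays otherwise: Twist1 and Lum were lowest in null 3. The part of cell makeup in the Il33 difference was not tested.

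**Figure D4:**
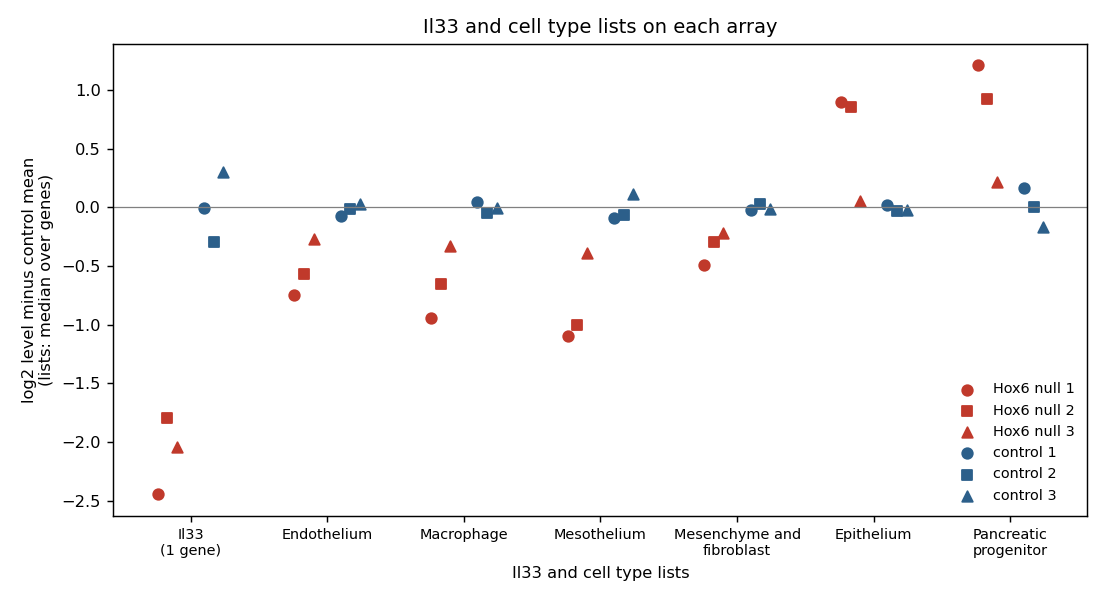
Each symbol is 1 array, with Hox6 null to the left and control to the right, and gives the log2 level of Il33, or the median over the genes of a list, relative to the control mean. Il33 stands at -2.44, -1.80 and -2.05 in the null arrays, and the list medians of the null arrays run from -1.10 to -0.22 in the 4 lists that lie below the controls and from 0.05 to 1.21 in epithelium and progenitors.

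The genes whose pattern was most like that of Il33 over the 6 arrays were sought by Pearson correlation among 9097 genes of at least median level. They were Fcer1g (r = 0.995), Ube2g1 (r = 0.994), 4930453N24Rik (r = 0.993), Itgb5 (r = 0.992) and 6720468P15Rik (r = 0.992). The arrays of both groups were separate for each of the 5. That follows from likeness to a gene chosen for its group difference on these arrays, and is no further result. Of the 9097 genes 397 (4.36%) had r above 0.9, so that a high r over these 6 arrays was common. Fcer1g, the signalling chain shared by Fc receptors of mast cells and macrophages, read 8.15, 8.54 and 8.44 in null 1, null 2 and null 3, against 9.27, 9.09 and 9.33 in control 1, control 2 and control 3. Its difference was -0.86 ± 0.13 (SE). Ube2g1, a ubiquitin-conjugating enzyme, and Itgb5, an integrin subunit, differed by -0.38 ± 0.09 (SE) and -0.53 ± 0.10 (SE).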

How the data were processed

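The authors deposited log2 expression values per probe set for 6 arrays. Per the submitters' processing notes these were made with RMA (background correction, quantile normalization, probe summary), affy and limma, without versions. Per the labels' protocols, cDNA was amplified from 10 ng of total RNA with a NuGEN kit. Array pairs shared 53 to 166 equal values, so all 6 were counted as separate samples.

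From these values, null minus control was fitted with limma 3.58.1 (R 4.3.3; lmFit, eBayes, two-sided, Benjamini-Hochberg at 0.05) over 45037 probe sets (64 array controls left out) and over 18193 genes at the probe set with the highest mean. SEs are moderated. The fit was tested on simulated data. The number of arrays limits the precision, and no detection calls were used.

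Members, gene lists and tests were chosen with earlier results of these data known. Named from each list were genes past the threshold and the 2 with the smallest p; from all genes, the 5 most correlated with Il33; and the targeted genes. Il1b, Il18bp, Il18rap, Il1r2, Sigirr, Nfkbia, Dusp1, Tnfaip3, Casp1, Cpa3 and Lum were added after their values were seen. Alternatives covered the filter on dim probe sets, normalization, array weights, variance prior, probe set choice, replicate block and each array left out.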

Additional observations from a re-analysis of the deposited data

How the results depend on the processing

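The difference of Il33 kept its sign and stayed within 1 SD of the replicates in all 12 alternatives that measured it (-2.24 to -1.92). It passed the threshold in 5 of these 12, and did not with repeated quantile normalization or the replicate block. Since Il33 was chosen by its difference on these same arrays, these calls describe the settings and are no test of Il33. The stricter filter on dim probe sets removed Il33 and Il18. Il18 ranged from -0.46 to -0.07 and Il1r1 from 0.04 to 0.47. Il1rap moved to -0.11 as the mean over its probe sets, and ranged from -0.79 to -0.30 with an array left out.

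The 13 genes past the threshold became 37 with the stricter filter, 1 with repeated quantile normalization, 8 with median centring, 155 with array weights, 74 with the trend and robust prior, and 0 to 1536 with an array left out. The probe set count of 1 became 16, 0, 41 and 63 with the filter, quantile normalization, array weights and prior, and 0 to 1902 with an array left out. The 4 list genes became 9, 0, 1, 12 and 13 with the filter, quantile normalization, median centring, array weights and prior, and 0 to 52 with an array left out. The filter tests fewer genes and also fits the variance prior anew on those kept. The causes of these changes were not tested.

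With the replicate number as a block, 0 genes and 0 list genes passed. In deviations from the group means, each null array correlated best with its same-numbered control, at 0.14, 0.0049 and 0.062. Control 2 correlated better with null 3, at 0.054, than with null 2. The labels give replicate numbers without naming pairs, so the main fit took none, and whether the arrays were paired was not settled.

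Signs reversed for Ikbkb (0.084) and Il7r (0.0032) as means over probe sets, for Il1r2 with quantile normalization (-0.059) or without null 1 (-0.059 to 0.21 with an array left out), and for Casp1 with quantile normalization (-0.033), without null 3 (-0.013) or without control 1 (-0.032 to 0.14 with an array left out). With the stricter filter, the list medians of family relatives, response genes and the ILC2 and T cell genes turned to -0.38, -0.24 and -0.23. That filter removed most genes of these lists, so these are medians of the few brighter genes kept, not of the whole lists. For the ILC2 and T cell genes the value was that of Foxp3 alone. Taken as means over probe sets, the whole ILC2 and T cell list had a median of -0.033. Il33 in null arrays and Il1a lay near the bottom of the scale.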
